A study of Rattus norvegicus with 12 samples.

Results

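The genes examined here carry glucose into the cell, break it down to pyruvate and lactate, and store it as glycogen or release it again. They were chosen by symbol, from a fixed list of 38 genes of rat glucose uptake, glycolysis, lactate handling and glycogen. Of these, 36 had a row in the table of 30560 genes, and all 36 passed the minimum of 10 reads summed over all rats and were tested among 18182 genes. The other two, Pfkfb1 and Pgk1, were not found in the table under these symbols and are not analysed here.

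RNA came from paraffin sections of the middle left ventricle of 12 male Wistar rats, with 1 library per rat. The Sham group (rats 12, 17, 32 and 38) had the chest opened without ligation and received vehicle. The MI group (rats 36, 57, 61 and 89) had permanent ligation of the left anterior descending coronary artery, which causes myocardial infarction, and received vehicle. The MI + UA group (rats 29, 58, 64 and 66) had the same ligation and received urolithin A, a gut microbial metabolite of dietary ellagitannins, by gavage. Vehicle was 0.5% carboxymethylcellulose, and all rats were operated at 7 weeks of age, dosed daily for 8 weeks and fasted overnight before the hearts were taken. The deposited design gives a urolithin A preparation of 50 mg/mL started 24 h after surgery, while the sources differ on dose and start. A section of a ligated ventricle can hold scar, border and surviving muscle, and the labels do not say in what shares. The label of rat 66 puts it in MI + UA, but it stands with vehicle-treated MI rats in a table of the study, so values were also computed with it counted in MI.

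Glucose enters heart muscle through the insulin-responsive transporter GLUT4 (Slc2a4) and the more widely expressed GLUT1 (Slc2a1). Hexokinase traps it, phosphofructokinase commits it to glycolysis, and the later steps yield ATP and pyruvate, which lactate dehydrogenase interconverts with lactate. Many of these steps are run by a form enriched in muscle and by partners that are found in most tissues. Adult heart muscle draws most of its ATP from fatty acids, and stressed or failing hearts are known for a greater reliance on glucose.

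Reads on genes numbered 6228706 to 19031695 per library, 50.2% to 58.6% of which fell on mitochondrially encoded genes. The share of all counted reads that fell on genes was 46.9% to 48.3% in Sham, 43.3% to 44.8% in MI and 42.9% to 47.2% in MI + UA. Levels are given as CPM, reads scaled to a common library size by edgeR's TMM method, which compare rats for the same gene but not genes with each other, since gene length is not corrected for. All 8 cardiomyocyte markers found in the table (of 9 listed, including titin, Ttn, and alpha myosin heavy chain, Myh6) fell in MI relative to Sham, by a median of 0.44 on the log2 scale. Their summed level was 45191 to 51385 CPM in Sham, 31361 to 37099 CPM in MI and 33011 to 44022 CPM in MI + UA. Of 7 fibroblast markers 6 were higher in MI, with sums of 1124 to 1434 CPM in Sham, 2185 to 3569 CPM in MI and 2202 to 3681 CPM in MI + UA. Of 7 macrophage markers 6 were higher too, with sums of 75.9 to 90.5 CPM in Sham, 138 to 184 CPM in MI and 125 to 194 CPM in MI + UA. Of the other lists, 1 of 5 endothelial markers was lower, 3 of 4 smooth muscle markers and 1 of 4 skeletal muscle markers tested were higher, and 0 of 3 adipocyte markers tested passed. No marker in the table was at 0 in all rats. In bulk tissue such as this, fewer cells of a type and less RNA per cell cannot be told apart.

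After infarction, and with libraries scaled to all genes, at least 1 gene was lower in each broad part of the pathway: uptake, the hexose and triose steps, lactate handling, and glycogen synthesis and breakdown. In that order 1 of 2, 3 of 11, 3 of 6, 1 of 4, 3 of 7 and 3 of 6 tested genes were lower. Of all genes at an average log2 CPM of at least 5, 18.7% were, so 1 lower gene in a small block says little. Of the 36 genes, 14 fell below Sham in the MI rats at an edgeR adjusted p under 0.05 and 0 rose, against a background of 5.53% of all genes tested lower and 5.82% higher. The same 14 genes showed no overlap between the 4 MI and the 4 Sham rats, and 7.56% of all genes were lower without overlap. The falls were moderate, from Ugp2 at 0.654 times its Sham level to Gpi and Phkb at 0.807 and 0.810 times. The median log2 fold change of the 36 genes was -0.31, with a range of -0.61 to 0.33, while the median over all genes tested was 0.026. Of the 36 values 29 lay below 0, against 47.0% of all genes. All 14 were among the 25 members with an average log2 CPM of at least 5, a level at which 18.7% of all genes tested were lower and 8.52% higher, so the count reads against the larger share. A gene that did not pass is not shown to be unchanged. None of the 11 members under that level passed the test in edgeR, and 1 of them had an unadjusted p under 0.05, as 23.9% of all genes did. DESeq2 gave the same 14 genes.

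The cardiomyocyte markers moved with these genes, and this sets what the falls are relative to. When libraries were scaled to the cardiomyocyte markers instead of to all genes, a scaling chosen after seeing the data that puts those markers at no net change, 0 of the 36 genes were lower in MI and 13 were higher, against 0.187% and 48.1% of all genes. Of the 14 genes above, 4 still lay below 0 and only Gpi passed, now as higher. That scaling used the mean log count of the 8 markers, of which Myh6 fell most (log2 fold change -1.08, against a marker median of -0.44). It raised the median over all genes by 0.54, more than the median fall of the markers, to 0.56 on the log2 scale. Below that raised median still lay 29 members. Leaving out the mitochondrially encoded genes from the scaling kept 14 members lower. The summed reads of the members made up 1.07% to 1.12% of all reads outside the mitochondrially encoded genes in Sham, 0.868% to 0.970% in MI and 0.880% to 0.980% in MI + UA.

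**Figure D1:**
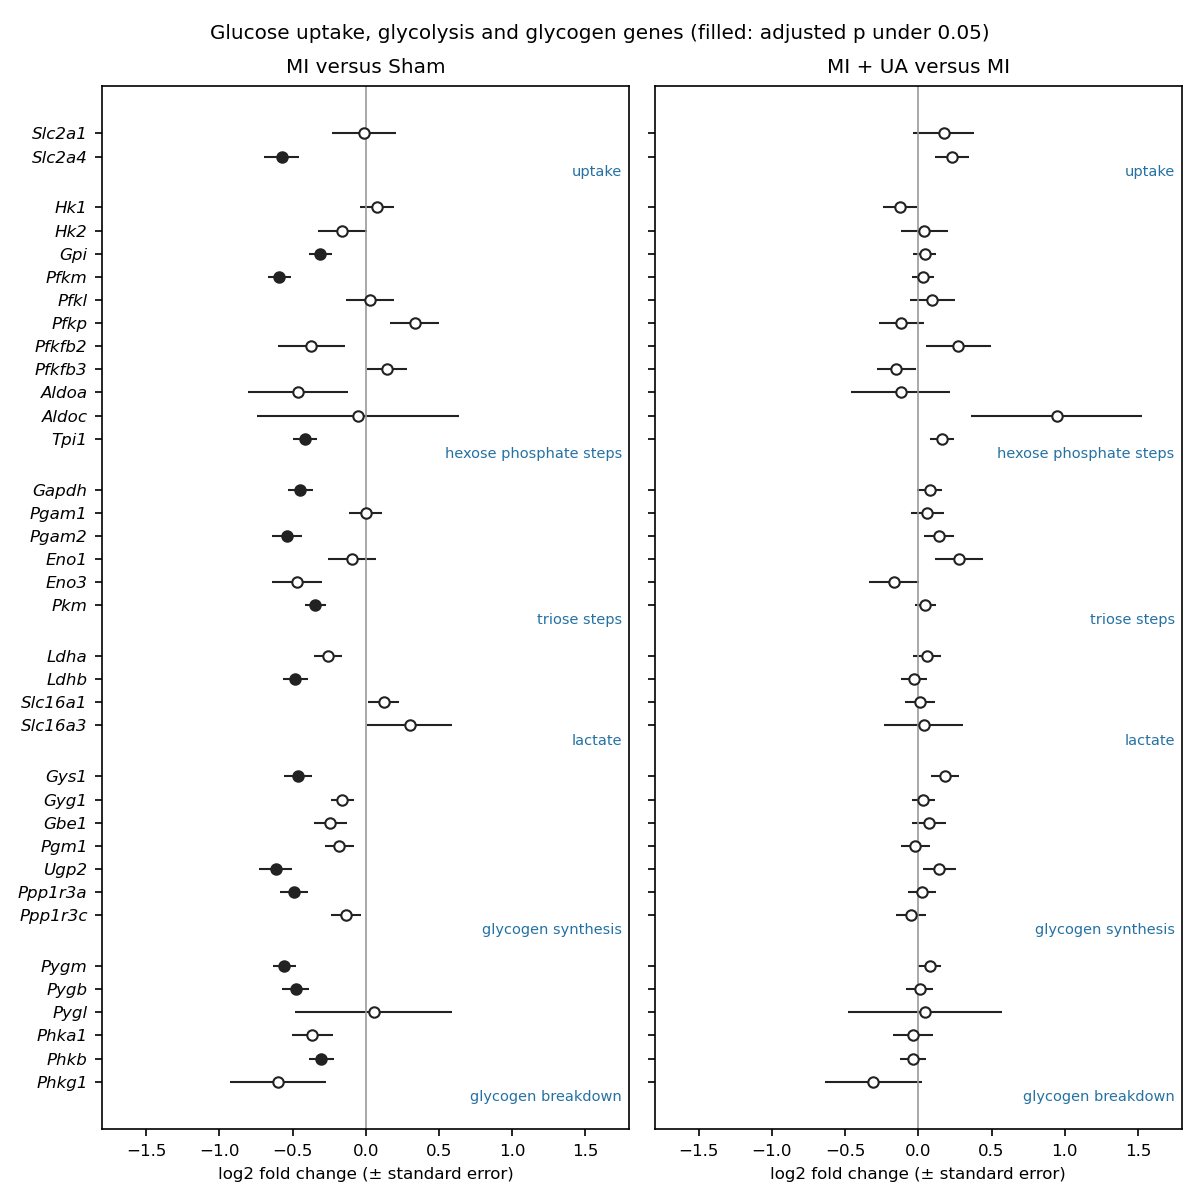
Log2 fold changes with standard errors for the 36 members, MI versus Sham on the left and MI + UA versus MI on the right, by step of the pathway, with the name of each step under its last gene; filled points have an edgeR adjusted p under 0.05. All 14 filled points on the left lie below 0 (4 of them still do, without passing the test, when libraries are scaled to cardiomyocyte markers), and 0 points are filled on the right.

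At the point of uptake the transporter of muscle fell and its ubiquitous partner showed no detectable change. Values of single rats are given in the order 12, 17, 32 and 38 for Sham, 36, 57, 61 and 89 for MI, and 29, 58, 64 and 66 for MI + UA. Slc2a4 (ENSRNOG00000017226), the insulin-responsive transporter, stood at 93.8, 112, 103 and 118 CPM in the Sham rats, 76.5, 71.7, 74.7 and 63.3 CPM in the MI rats and 88.4, 61.9, 81.6 and 102 CPM in the MI + UA rats. Every MI rat was below every Sham rat, with log2 fold change -0.58, standard error 0.12, edgeR adjusted p = 0.00268. The MI + UA rats spread from below the MI group to within the Sham range, with rat 58 lowest and rat 66 highest. Slc2a1 (ENSRNOG00000007284), which supports basal uptake in most tissues, stood at 6.15, 9.09, 6.57 and 7.75 CPM in the Sham rats, 8.33, 5.33, 8.41 and 6.84 CPM in the MI rats and 7.88, 10.8, 10.2 and 5.23 CPM in the MI + UA rats, with full overlap of the groups and a log2 fold change of -0.012 in MI (standard error 0.22). Its counts were only 34 to 138 reads per rat.

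Of the 11 genes tested from glucose phosphorylation to triose phosphates, 3 were lower in MI (Pfkm, Gpi and Tpi1) and 8 did not pass. The median log2 fold change of the 11 was -0.16. Among all genes tested the lower share was 5.53%, rising to 18.7% for those whose average log2 CPM reached 5. Phosphofructokinase is the committing step, and of its genes the muscle subunit passed. This subunit, Pfkm (ENSRNOG00000057988), stood at 134, 149, 147 and 150.5 CPM in the Sham rats, 103, 92.4, 92.6 and 97.8 CPM in the MI rats and 102, 97.4, 94.2 and 101 CPM in the MI + UA rats. This was the smallest adjusted p among the members (log2 fold change -0.59, standard error 0.075, edgeR adjusted p = 3.21e-05), with the MI and MI + UA rats in the same band below all Sham rats. The liver subunit Pfkl stood at 8.91, 5.34, 7.74 and 7.51 CPM in the Sham rats, 6.80, 8.15, 7.16 and 8.15 CPM in the MI rats and 8.91, 7.32, 8.26 and 7.60 CPM in the MI + UA rats. The platelet subunit Pfkp stood at 6.77, 5.34, 5.89 and 6.44 CPM in the Sham rats, 6.80, 8.62, 9.13 and 6.68 CPM in the MI rats and 7.83, 7.58, 5.95 and 6.98 CPM in the MI + UA rats. Neither separated the groups, and the log2 fold change in MI was 0.026 for Pfkl (standard error 0.16) and 0.33 for Pfkp (standard error 0.17).

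Gpi (ENSRNOG00000023150), which turns glucose phosphate into fructose phosphate, stood at 219, 215, 207 and 222 CPM in the Sham rats, 184, 156, 172 and 184 CPM in the MI rats and 191, 162, 174 and 189 CPM in the MI + UA rats. Its MI rats were all below Sham (log2 fold change -0.31, standard error 0.079, edgeR adjusted p = 0.0133). Tpi1 (ENSRNOG00000015290), which balances the triose phosphates, stood at 95.1, 109, 107 and 115 CPM in the Sham rats, 78.2, 85.3, 79.9 and 76.7 CPM in the MI rats and 96.0, 90.0, 88.2 and 83.7 CPM in the MI + UA rats. It was lower in all MI rats (log2 fold change -0.41, standard error 0.081, edgeR adjusted p = 0.00185), and the MI + UA rats ran from within the MI range to rat 29 inside the Sham range. The hexokinases, which trap glucose in the cell, did not pass the test. Hk1, the ubiquitous form, stood at 51.8, 64.8, 59.6 and 62.5 CPM in the Sham rats, 67.6, 67.6, 62.0 and 54.8 CPM in the MI rats and 70.2, 44.3, 54.5 and 60.5 CPM in the MI + UA rats. Hk2, the insulin-responsive form of muscle, stood at 15.6, 14.7, 12.1 and 16.2 CPM in the Sham rats, 16.7, 12.9, 11.3 and 11.6 CPM in the MI rats and 15.5, 9.25, 16.5 and 12.8 CPM in the MI + UA rats. Both overlapped in all groups, with log2 fold changes in MI of 0.077 and -0.16 (standard errors 0.12 and 0.17). The value of Hk2 ran from -0.31 without MI rat 36 to -0.095 without MI rat 61.

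Pfkfb2 and Pfkfb3, the heart-type and inducible bifunctional enzymes that set the level of an allosteric activator of phosphofructokinase, had log2 fold changes of -0.37 (standard error 0.23) and 0.15 (standard error 0.14), neither of them past the test, and Pfkfb2 was at -0.22 without MI rat 57. The aldolases, which split the hexose, were thinly counted. Aldoa, the muscle aldolase, held 224 reads over all 12 rats and Aldoc, the brain form, 113. Aldoa stood at 2.13, 2.17, 1.68 and 3.22 CPM in the Sham rats, 1.61, 1.25, 1.45 and 2.28 CPM in the MI rats and 1.49, 1.28, 0.677 and 2.36 CPM in the MI + UA rats. Aldoc stood at 0.627, 0.577, 1.68 and 0.119 CPM in the Sham rats, 1.39, 0.314, 0.311 and 0.489 CPM in the MI rats and 0.971, 2.83, 0.541 and 1.13 CPM in the MI + UA rats. These values overlap throughout, and a difference was not detectable at this depth. Since RefSeq places another gene, LOC103691235, over Aldoa, and the strand setting of the counting is not given in the sources used here, its reads may be incomplete. RefSeq also places other genes over several further members. Among those that passed in MI versus Sham these are Pfkm, Tpi1, Pkm and Pygm, to which the same limit applies.

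From glyceraldehyde phosphate to pyruvate, 3 of 6 genes were lower in MI (Gapdh, Pgam2 and Pkm), and the median log2 fold change was -0.40. Of all genes 5.53% were lower, or 18.7% at an average log2 CPM of at least 5. Gapdh (ENSRNOG00000018630), the dehydrogenase of the pathway that is also often used as a reference gene, stood at 1339, 1437, 1608 and 1492 CPM in the Sham rats, 1214, 1086, 942 and 1071 CPM in the MI rats and 1156, 1021, 1172 and 1199.9 CPM in the MI + UA rats. All MI rats were below all Sham rats (log2 fold change -0.45, standard error 0.087, edgeR adjusted p = 0.00189). Near-identical copies of Gapdh in the genome could take a share of its reads, which makes its level uncertain. Pkm (ENSRNOG00000011329), the pyruvate kinase gene of muscle and most other tissues, stood at 234, 258, 264 and 267 CPM in the Sham rats, 195, 207, 207 and 197 CPM in the MI rats and 206, 202, 217 and 209 CPM in the MI + UA rats. It too fell without overlap (log2 fold change -0.35, standard error 0.072, edgeR adjusted p = 0.00301), and its splice forms cannot be told apart in counts per gene.

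For phosphoglycerate mutase, too, the muscle form passed the test and the ubiquitous form did not, and the ratio of the forms is tested below. Pgam2 (ENSRNOG00000013532), the muscle form, stood at 94.6, 108.4, 109.9 and 122 CPM in the Sham rats, 77.6, 81.2, 68.0 and 73.2 CPM in the MI rats and 85.1, 65.6, 86.3 and 92.2 CPM in the MI + UA rats, without overlap between MI and Sham (log2 fold change -0.54, standard error 0.10, edgeR adjusted p = 0.00158). Pgam1, the ubiquitous form, stood at 75.5, 74.6, 96.8 and 96.5 CPM in the Sham rats, 74.6, 107, 84.5 and 78.7 CPM in the MI rats and 84.7, 86.0, 88.0 and 98.8 CPM in the MI + UA rats, at a log2 fold change of -0.00081 (standard error 0.11). The groups of Pgam1 overlapped fully, and copies of near-identical sequence make its level uncertain. For the enolases the spread was wider. Eno3, the muscle form, stood at 34.8, 49.9, 40.4 and 41.7 CPM in the Sham rats, 43.1, 20.7, 23.4 and 31.0 CPM in the MI rats and 26.2, 22.5, 31.9 and 26.7 CPM in the MI + UA rats. Rat 36 lay within the Sham range and the other three MI rats below it (log2 fold change -0.47, standard error 0.17, edgeR adjusted p = 0.0823), and without rat 36 the log2 fold change was -0.72 with an adjusted p of 0.00299. With rat 66 counted in MI or with no filter on low counts, Eno3 also passed (edgeR adjusted p = 0.0487 and 0.0230). Eno1, the ubiquitous form, stood at 239, 125, 144 and 145 CPM in the Sham rats, 172, 141, 131 and 167 CPM in the MI rats and 175, 205, 140.5 and 221 CPM in the MI + UA rats, overlapping throughout, with rat 12 highest among Sham.

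Of 4 genes of lactate handling, 1 was lower in MI, a share near the 18.7% of all genes at an average log2 CPM of at least 5. Ldhb (ENSRNOG00000013000), the lactate dehydrogenase subunit of heart, stood at 359, 425, 399 and 445 CPM in the Sham rats, 305, 316, 268 and 278 CPM in the MI rats and 289, 257, 287 and 309.7 CPM in the MI + UA rats. The MI rats were all below Sham (log2 fold change -0.48, standard error 0.086, edgeR adjusted p = 0.000844), and so were the MI + UA rats. Ldha, the subunit of fast muscle and many other tissues, stood at 141, 154, 167 and 178 CPM in the Sham rats, 135, 139, 145 and 118 CPM in the MI rats and 125, 139, 161 and 134 CPM in the MI + UA rats. It overlapped by a rat and did not pass (log2 fold change -0.26, standard error 0.095, edgeR adjusted p = 0.0946), but it passed without Sham rat 12 (edgeR adjusted p = 0.0498). The monocarboxylate transporters, which move lactate across the membrane, did not pass: the log2 fold change was 0.12 for Slc16a1 (standard error 0.11) and 0.30 for the thinly counted Slc16a3 (standard error 0.29).

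Among 7 genes of glycogen synthesis, 3 were lower in MI and all 7 log2 fold changes lay below 0, with a median of -0.24. Across all genes tested 5.53% were lower, or 18.7% where the average log2 CPM reached 5. A log2 fold change below 0 was found for 47.0% of all genes. Ugp2 (ENSRNOG00000008079), which makes the UDP-glucose that glycogen is built from, stood at 117, 119, 121 and 130.1 CPM in the Sham rats, 86.6, 77.8, 72.1 and 81.1 CPM in the MI rats and 81.0, 77.7, 75.5 and 116 CPM in the MI + UA rats. Its fall was the largest in size among the members that passed (log2 fold change -0.61, standard error 0.11, edgeR adjusted p = 0.000997), and rat 66 stood apart from the other MI + UA rats, close to Sham. Gys1 (ENSRNOG00000020812), the glycogen synthase of muscle, stood at 83.4, 98.4, 90.2 and 86.0 CPM in the Sham rats, 69.0, 64.9, 67.4 and 58.7 CPM in the MI rats and 82.5, 60.2, 75.8 and 75.6 CPM in the MI + UA rats, lower in every MI rat (log2 fold change -0.46, standard error 0.096, edgeR adjusted p = 0.00297). Ppp1r3a (ENSRNOG00000059350), the striated muscle subunit that brings protein phosphatase to glycogen, stood at 118, 140.3, 114 and 119 CPM in the Sham rats, 101, 89.7, 75.6 and 84.0 CPM in the MI rats and 96.8, 83.6, 84.5 and 90.7 CPM in the MI + UA rats, again without overlap between MI and Sham (log2 fold change -0.49, standard error 0.095, edgeR adjusted p = 0.00174). The primer protein gene Gyg1, the branching enzyme gene Gbe1, the phosphoglucomutase gene Pgm1 and the second phosphatase subunit gene Ppp1r3c did not pass, with log2 fold changes of -0.16, -0.24, -0.18 and -0.14. Without MI rat 57, Gbe1 passed (edgeR adjusted p = 0.0444).

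Glycogen breakdown gave 3 of 6 genes lower in MI, and the median log2 fold change was -0.42. The share of all genes lower was 5.53%, or 18.7% at an average log2 CPM of at least 5. Pygm (ENSRNOG00000021090), the glycogen phosphorylase of muscle, stood at 763, 748, 735 and 788 CPM in the Sham rats, 522, 527, 507 and 507 CPM in the MI rats and 542, 492, 513 and 627 CPM in the MI + UA rats. The MI rats lay in a narrow band far below Sham (log2 fold change -0.56, standard error 0.079, edgeR adjusted p = 9.49e-05), and among the MI + UA rats 29 and 66 lay above that band and rat 58 below it. Pygb (ENSRNOG00000007583), the brain phosphorylase, which heart also expresses, stood at 160.2, 193, 179 and 191 CPM in the Sham rats, 138, 111, 125 and 143 CPM in the MI rats and 141, 119, 125 and 136 CPM in the MI + UA rats and fell as well (log2 fold change -0.48, standard error 0.092, edgeR adjusted p = 0.00154). It was the only one of 11 non-muscle or ubiquitous partners to pass the test. Pygl, the liver phosphorylase, held 96 reads in all, at 1.13, 1.01, 0.505 and 0.477 CPM in the Sham rats, 0.585, 0.314, 0.934 and 1.30 CPM in the MI rats and 0.457, 1.67, 1.08 and 0.506 CPM in the MI + UA rats, and a difference was not detectable at this depth.

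Phosphorylase kinase switches the phosphorylases on. Its shared beta subunit Phkb (ENSRNOG00000024101) stood at 76.7, 68.3, 69.0 and 72.0 CPM in the Sham rats, 57.2, 55.5, 56.0 and 62.8 CPM in the MI rats and 57.5, 61.9, 48.9 and 57.4 CPM in the MI + UA rats, without overlap between MI and Sham (log2 fold change -0.30, standard error 0.086, edgeR adjusted p = 0.0254). This call was the least stable of the 14, since it held in 3 of 8 fits that left out 1 rat: it was lost without Sham rat 12 or 38 or MI rat 36, 57 or 61, with adjusted p from 0.0540 to 0.0732. Phka1, the alpha subunit of muscle, stood at 21.3, 14.9, 22.9 and 28.4 CPM in the Sham rats, 16.1, 16.8, 18.2 and 17.2 CPM in the MI rats and 16.5, 16.95, 16.0 and 17.05 CPM in the MI + UA rats. The groups overlapped through rat 17, the lowest of all Sham rats (log2 fold change -0.36, standard error 0.14, edgeR adjusted p = 0.104), and without that rat Phka1 passed (log2 fold change -0.51, edgeR adjusted p = 0.00866), while without rat 38 its value was -0.21. Phkg1, the catalytic subunit of muscle, had a log2 fold change of -0.60 with a standard error of 0.33 on 313 reads in all, and this was -0.22 without Sham rat 12. Leaving out any 1 rat moved none of the 14 log2 fold changes that passed by more than 1.5 times, whereas 18 of the other 22 moved by more than that, or turned in sign, without at least 1 rat. This contrast is largely built in, since values near 0 easily move by large multiples. The 14 were also picked in these same rats for being large against their error.

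**Figure D2:**
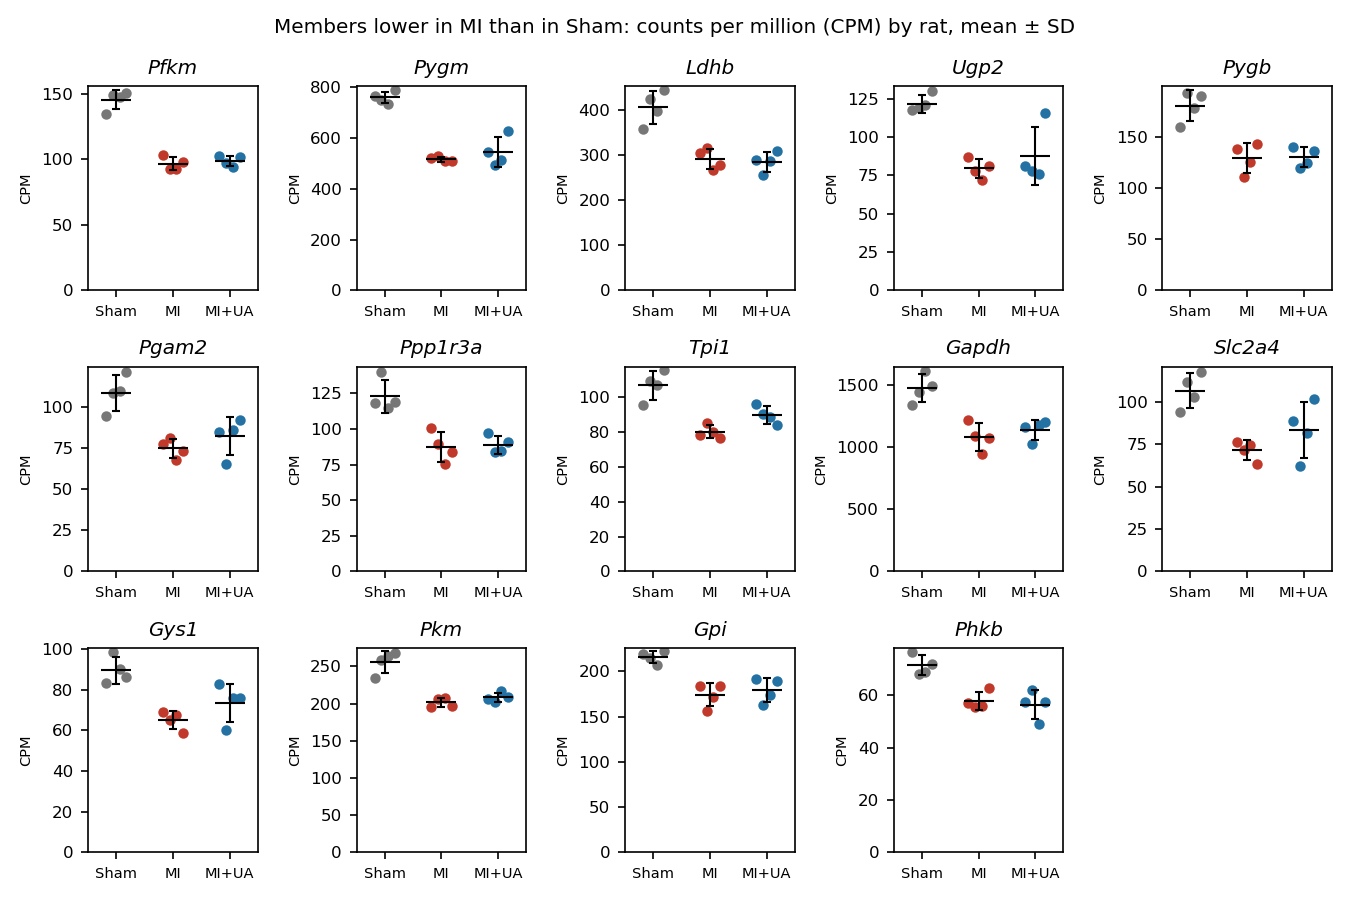
CPM of the 14 members with an edgeR adjusted p under 0.05 in MI versus Sham, one point per rat, with the mean and SD of each group of 4 rats; each vertical axis starts at 0. In every panel the 4 MI rats lie below the 4 Sham rats, which rests on scaling to all genes, and the MI + UA rats overlap the MI rats.

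Sorted by isoform rather than by step, some members were placed in a muscle-enriched class and others in a class of non-muscle or ubiquitous partners. Of lactate dehydrogenase, the heart subunit Ldhb stands in the first class and Ldha, which fast muscle also uses, in the second. Ugp2, Pkm, Tpi1, Gapdh, Gpi and Phkb, all lower in MI, stand in neither class. Of 11 muscle-enriched members (Slc2a4, Hk2, Pfkm, Pgam2, Eno3, Ldhb, Gys1, Pygm, Phka1, Phkg1 and Ppp1r3a), 7 were lower in MI, and all 11 log2 fold changes lay below 0, with a median of -0.49 and a range of -0.60, set by Phkg1 and resting on Sham rat 12, to -0.16. That class leaves out Aldoa and Pfkfb2, muscle and heart forms that did not pass, and with both, an addition made after their values were seen, 7 of 13 were lower, with a median of -0.48. Of 11 non-muscle or ubiquitous partners, 1 was lower and 0 were higher, a share of 9.09% near the background of 5.53%, with a median of -0.00081 and a range of -0.48 to 0.33. The muscle-enriched median lay close to that of the cardiomyocyte markers, -0.44, and the partner median close to that of all genes tested, 0.026. The partners Slc2a1, Pfkl, Pfkp, Aldoc and Pygl had few reads. At an average log2 CPM of at least 5, where 18.7% of all genes were lower, the counts were 7 of 8 muscle-enriched genes and 1 of 5 partners, and whether the classes differ was not tested. Under the scaling to cardiomyocyte markers 0 of the 11 muscle-enriched genes passed the test, and 7 of the 13 genes then higher were partners (Hk1, Pfkl, Pfkp, Pfkfb3, Pgam1, Eno1 and Ldha), where 48.1% of all genes were higher.

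**Figure D3:**
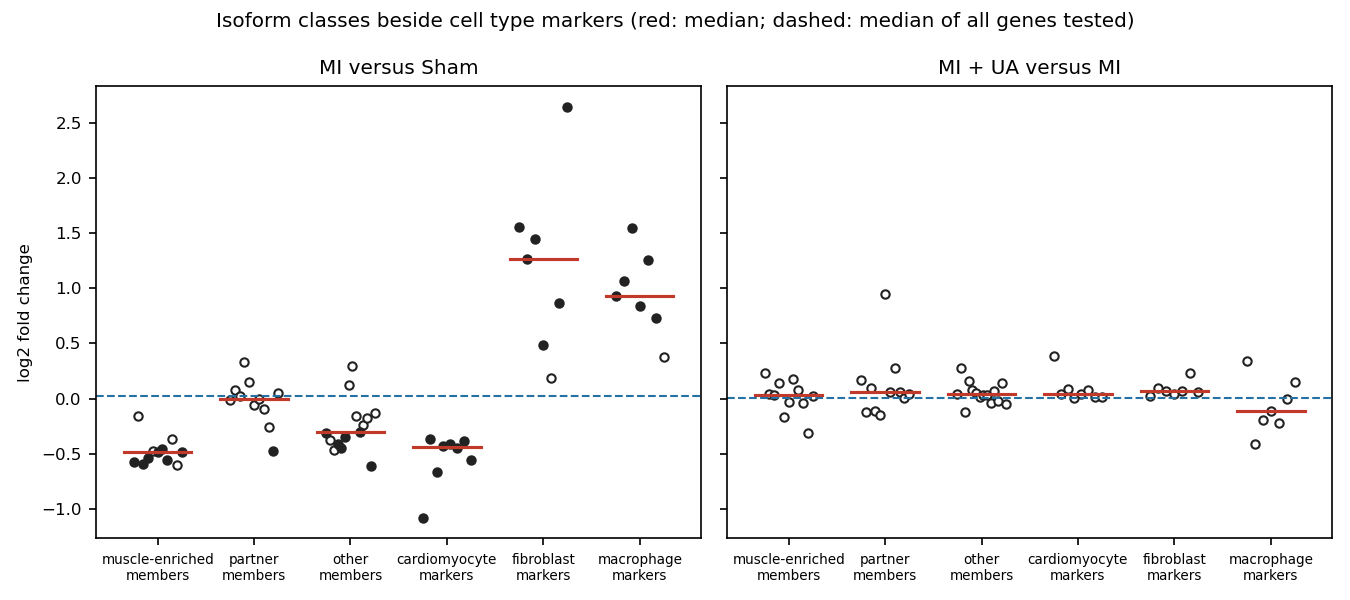
Log2 fold changes of muscle-enriched, partner and other members beside cardiomyocyte, fibroblast and macrophage markers, for MI versus Sham on the left and MI + UA versus MI on the right; filled points have an edgeR adjusted p under 0.05, red bars are medians and the dashed line is the median of all genes tested. On the left the muscle-enriched genes (median -0.49) lie level with the cardiomyocyte markers (median -0.44), and the fibroblast markers lie at a median of 1.26.

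A ratio of muscle form (for lactate dehydrogenase the heart subunit Ldhb) to partner within each rat needs no scaling of libraries. The log2 ratio of counts (with 1 added to each) was compared in 10 pairs by a two-sided exact permutation test, in MI versus Sham and in MI + UA versus MI, and adjusted over the 20 comparisons. With 4 rats against 4 the smallest p is 0.0286. After adjustment over 20 comparisons, MI versus Sham alone could not pass 0.05, even with all 10 pairs fully apart. No pair passed, which therefore decides nothing about MI versus Sham. In MI versus Sham all 10 differences lay below 0, the side of less muscle form, or for lactate dehydrogenase of less heart form. The pairs are not separate, since Pfkm and Pygm each stand in more than 1 pair. The muscle-enriched members also lay below 0 one by one, as given above.

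**Figure D4:**
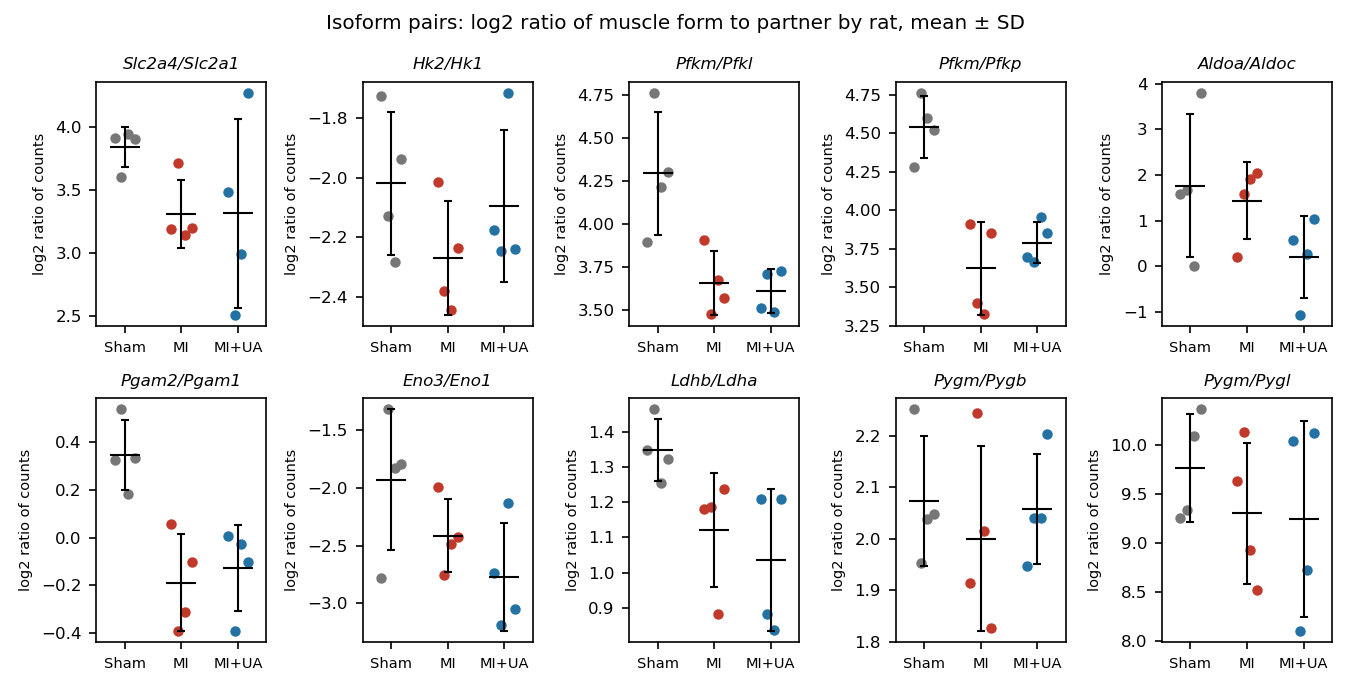
Log2 ratio of the counts of the muscle form (for lactate dehydrogenase the heart subunit Ldhb) to those of its partner in each rat for 10 isoform pairs. The mean and SD of each group of 4 rats are shown, and the vertical axes do not start at 0. For Pfkm/Pfkp, Pgam2/Pgam1 and Ldhb/Ldha every MI rat lies below every Sham rat, and for the other 7 pairs the groups overlap.

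For Pfkm/Pfkp the log2 ratio was 4.28, 4.77, 4.603 and 4.52 in Sham, 3.91, 3.40, 3.33 and 3.85 in MI and 3.70, 3.66, 3.95 and 3.85 in MI + UA. MI lay below Sham in all rats (difference -0.92, standard error 0.18, exact permutation p = 0.0286, adjusted p = 0.190). For Pgam2/Pgam1 it was 0.32, 0.54, 0.18 and 0.33 in Sham, 0.057, -0.39, -0.31 and -0.10 in MI and 0.0058, -0.39, -0.027 and -0.10 in MI + UA. Every MI rat was again below every Sham rat (difference -0.53, standard error 0.13, exact permutation p = 0.0286, adjusted p = 0.190). For Ldhb/Ldha it was 1.35, 1.46, 1.25 and 1.32 in Sham, 1.18, 1.19, 0.88 and 1.24 in MI and 1.21, 0.88, 0.84 and 1.21 in MI + UA. This smaller shift also kept the groups apart (difference -0.23, standard error 0.092, exact permutation p = 0.0286, adjusted p = 0.190), and it was -0.15 without MI rat 61. Without any 1 rat the differences ran from -1.02 to -0.82 for Pfkm/Pfkp, from -0.61 to -0.46 for Pgam2/Pgam1 and from -0.26 to -0.15 for Ldhb/Ldha. Leaving out a rat cannot make groups overlap that were apart, so the exact permutation p of such fits, 0.0286 or 0.0571 here, says nothing about stability. It was 0.0571 for Pgam2/Pgam1 without Sham rat 12, 17 or 38 and for Ldhb/Ldha without any 1 Sham rat or MI rat 61.

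Slc2a4/Slc2a1 and Pfkm/Pfkl differed by -0.53 and -0.64 in MI versus Sham (standard errors 0.16 and 0.20), each with 1 pair of rats out of order and an exact permutation p of 0.0571, which was 0.0286 for the first without MI rat 57 and for the second without Sham rat 12. Hk2/Hk1 differed by -0.25 (exact permutation p = 0.171) and Eno3/Eno1 by -0.48 (exact permutation p = 0.257), both with overlap. Hk2/Hk1 was -0.15 without Sham rat 12, and Eno3/Eno1 was -0.77 without Sham rat 12 and -0.28 without Sham rat 17. Pygm and Pygb fell together, and their ratio moved by -0.073 with a standard error of 0.11, or by -0.15 to -0.013 without any 1 rat. Pygm/Pygl and Aldoa/Aldoc, whose partners had few reads, differed by -0.46 and -0.33 (standard errors 0.45 and 0.89). Without any 1 rat these ran from -0.74 to -0.20 and from -0.92 to 0.35.

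The promoters of the 3 pairs whose ratios kept MI and Sham apart are shown because the members of each pair do the same reaction while the balance of their counts separated the groups. Each is the 250 bases before the RefSeq start on the rat build GRCr8, which is not the build of the counts, read 5′ to 3′ on the gene's strand. Capitals mark GC boxes (GGGCGG on either strand), a motif of promoters active in most tissues. The form classed as muscle-enriched comes first in each pair, which for lactate dehydrogenase is the heart subunit Ldhb.
Pfkm (chr7:131113849-131114098, plus strand): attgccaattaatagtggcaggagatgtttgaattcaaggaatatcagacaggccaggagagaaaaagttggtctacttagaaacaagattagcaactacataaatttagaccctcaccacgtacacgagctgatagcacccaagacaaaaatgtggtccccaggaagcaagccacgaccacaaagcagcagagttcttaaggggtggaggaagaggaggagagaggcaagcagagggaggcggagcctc
Pfkp (chr17:68639563-68639812, plus strand): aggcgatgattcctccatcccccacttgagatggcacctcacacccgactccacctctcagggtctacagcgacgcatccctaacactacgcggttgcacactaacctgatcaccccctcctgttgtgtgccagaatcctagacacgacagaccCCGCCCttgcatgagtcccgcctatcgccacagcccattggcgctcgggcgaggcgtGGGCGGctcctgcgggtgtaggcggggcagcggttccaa
Pgam2 (chr14:84897875-84898124, minus strand): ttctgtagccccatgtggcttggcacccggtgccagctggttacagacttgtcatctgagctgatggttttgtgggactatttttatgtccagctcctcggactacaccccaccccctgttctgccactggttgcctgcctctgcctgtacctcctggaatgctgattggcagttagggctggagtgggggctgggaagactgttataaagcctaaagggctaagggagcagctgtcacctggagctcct
Pgam1 (chr1:250672902-250673151, plus strand): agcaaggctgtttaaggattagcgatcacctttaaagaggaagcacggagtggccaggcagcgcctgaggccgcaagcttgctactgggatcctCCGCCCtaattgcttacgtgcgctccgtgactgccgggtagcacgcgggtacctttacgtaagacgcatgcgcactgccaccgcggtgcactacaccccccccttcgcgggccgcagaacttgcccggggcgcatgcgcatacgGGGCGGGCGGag
Ldhb (chr4:177177409-177177658, minus strand): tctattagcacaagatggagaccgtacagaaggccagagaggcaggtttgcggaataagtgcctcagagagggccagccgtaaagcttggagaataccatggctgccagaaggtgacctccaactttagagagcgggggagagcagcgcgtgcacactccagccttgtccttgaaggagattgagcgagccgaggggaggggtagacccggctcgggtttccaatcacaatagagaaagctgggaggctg
Ldha (chr1:106507842-106508091, plus strand): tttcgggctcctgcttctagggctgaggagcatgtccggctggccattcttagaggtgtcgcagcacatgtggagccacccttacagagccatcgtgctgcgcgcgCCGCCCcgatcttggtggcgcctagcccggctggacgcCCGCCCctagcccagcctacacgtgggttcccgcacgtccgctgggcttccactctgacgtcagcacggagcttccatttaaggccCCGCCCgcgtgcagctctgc

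No GC box was found in these windows of Pfkm, Pgam2 and Ldhb, while Pfkp held 2 and Pgam1 and Ldha 3 each. Among all members with a promoter entry, 1 of 10 muscle-enriched genes (Gys1) and 9 of 11 partners held a GC box, beside 32.4% of all 27457 rat promoters of the same length. The core of the hypoxia response element (ACGTG on either strand), the element through which hypoxia-inducible factors are known to act on glycolytic genes, was in 3 of 10 muscle-enriched genes, 7 of 11 partners and 16.9% of all promoters. By outcome, a GC box was in 7 of the 13 genes lower in MI that had an entry and in 12 of 22 that did not pass, and the hypoxia core in 4 and 12. These are matches of letters in a window, and nothing is drawn from them about a factor. Slc2a4 and Pgk1 had no promoter entry.

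Urolithin A was compared with vehicle in infarcted hearts to ask whether treatment moved these genes. Between MI + UA and MI, 0 of the 36 members passed the edgeR test, as did 0.00% of all 18182 genes. At an unadjusted p under 0.05 there were 0 members, beside 3.79% of all genes, and no member had groups without overlap, beside 2.34% of all genes. The median log2 fold change of the members was 0.042, with 25 above 0 and 11 below, and the median over all genes was 0.0047, with 51.0% above 0 and 49.0% below. This member median was 0.012 without rat 66 and 0.027 without MI rat 61, each with 16 values below 0, and -0.020 with 21 below 0 when rat 66 was counted in MI. DESeq2 also gave 0 members. For the 14 genes lower in MI the standard errors of this comparison ran from 0.072 (Pkm) to 0.12 (Slc2a4) on the log2 scale, so small shifts could not be told from none.

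Of the 14, Slc2a4 had the largest difference, at a log2 fold change of 0.23 (standard error 0.12), yet this was -0.0051 with rat 66 counted in MI, 0.12 without rat 66 and 0.34 without rat 58. Tpi1 gave 0.16 (standard error 0.081) and Gys1 0.18 (standard error 0.095), the latter 0.12 without rat 29. Pfkm, Pygm, Ldhb and Gapdh, all lower in MI, gave 0.034, 0.076, -0.030 and 0.076. Without any 1 rat these ran from 0.015 to 0.068, from -0.00037 to 0.12, from -0.071 to 0.017 and from 0.017 to 0.14. The largest positive value, 0.95 for Aldoc, had a standard error of 0.58 and rested on few reads, and it was 1.7505 without MI rat 36 and 0.44 without MI + UA rat 58. None of the isoform ratios separated MI + UA from MI, the smallest exact permutation p being 0.114 for Aldoa/Aldoc.

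Against Sham, which serves as control for both infarcted groups, 12 members were lower in MI + UA and 0 were higher, where 4.27% and 5.16% of all genes were. The 12 were Pfkm, Pygm, Ldhb, Ugp2, Pygb, Pgam2, Ppp1r3a, Gapdh, Pkm, Gpi, Phkb and Eno3. Of these, 8 passed in each of 8 fits without 1 rat, while Phkb passed in 7 (not without MI + UA rat 64), Pgam2 in 6 (not without Sham rat 38 or MI + UA rat 58), Eno3 in 4 (not without Sham rat 17 or 38 or MI + UA rat 29 or 58) and Gpi in 1 (only without rat 66). With libraries scaled to cardiomyocyte markers, 0 were lower and 12 higher, against 0.148% and 38.7% of all genes, and 0 of the 12 genes just named passed. Side by side, Pfkm had a log2 fold change of -0.59 in MI and -0.55 in MI + UA, each against Sham, and Ldhb of -0.48 and -0.51. For Slc2a4 the values were -0.58 and -0.35, the second with an adjusted p of 0.0694 in edgeR, or 0.0112 without rat 66. For Tpi1 they were -0.41 and -0.25 (edgeR adjusted p = 0.0542, or 0.0243 without Sham rat 12), and for Gys1 -0.46 and -0.28 (edgeR adjusted p = 0.0726). Whether MI + UA differs from MI for these genes is answered only by their direct comparison above.

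Around the core pathway, 65 further genes were listed, of which 56 were tested and 10 passed in MI versus Sham, beside 11.4% of all genes. The 8 lower ones included the lysosomal glucosidase gene Gaa (-0.34) and the glycogen phosphatase gene Epm2a (laforin, -0.56), and no glycogen gene of this list was higher. Of 19 tested transport and glycolysis genes 2 were lower: Ldhd, the D-lactate dehydrogenase (-0.64), and Bsg, the chaperone of lactate transporters (-0.27). Of 12 tested regulators 2 were lower: Tbc1d4, which holds GLUT4 vesicles inside the cell until insulin acts (-0.34), and Prkaa2, a catalytic subunit of the energy sensor AMPK (-0.33). The values in brackets are log2 fold changes. Both shares, 10.5% and 16.7%, lie under the 18.7% of all genes lower at an average log2 CPM of at least 5, the level of these named genes. Of all genes tested 5.53% were lower, and neither count is read as a result about its list.

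In the branches from glycolysis, 12 genes were tested and both directions appeared. The polyol pathway gene Akr1b1 was lower (log2 fold change -0.34), whereas Gfpt2 and Uap1 of the hexosamine pathway, which feeds glucose carbon into protein glycosylation and matrix, were higher. Gfpt2, which commits fructose phosphate to that branch, stood at 18.4, 11.7, 27.3 and 26.0 CPM in the Sham rats, 26.2, 40.0, 41.5 and 41.1 CPM in the MI rats and 29.1, 26.7, 38.7 and 37.8 CPM in the MI + UA rats. Each MI rat but the lowest was clear of the Sham range, with log2 fold change 0.83, standard error 0.20, edgeR adjusted p = 0.00798. Uap1, which makes UDP-N-acetylglucosamine, stood at 13.5, 14.4, 20.7 and 17.3 CPM in the Sham rats, 21.5, 41.2, 37.4 and 24.4 CPM in the MI rats and 21.8, 26.5, 27.6 and 29.9 CPM in the MI + UA rats, and rose with log2 fold change 0.90, standard error 0.18, edgeR adjusted p = 0.00245. Fibroblast and macrophage markers rose in the same rats, and their part in these rises was not tested. In MI + UA versus MI, 0 of the 56 passed in edgeR and 0 had an unadjusted p under 0.05.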

How the data were processed

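RNA from formalin-fixed sections was sequenced after depletion of ribosomal RNA with strand-specific, paired-end libraries, although the labels give polyA RNA as the molecule. The authors mapped reads with STAR 2.6.1c to mRatBN7.2 and deposited the unnormalized counts per Ensembl gene from htseq-count, with MultiQC 1.8 among the submitters' listed tools. The strand setting of the counting is not given in the sources used here. Reads outside genes (37.9% to 46.6%) or in several genes (3.18% to 3.84%) were left out of library sizes, and no 2 rats of a group agreed within sampling noise.

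Genes that reached 10 counts over all rats were compared with edgeR 4.0.16 (R 4.3.3), as a quasi-likelihood fit of 3 groups on TMM-scaled libraries, with Benjamini-Hochberg adjustment over 18182 genes and a threshold of 0.05. The study used DESeq2, here an alternative (version 1.42.0). The standard error is the log2 fold change divided by the square root of F. Average log2 CPM is edgeR's. Isoform ratios used exact permutation over rats, and Phka1/Phka2 was not run because Phka2 was not found by symbol. The fit was tested on simulated data. The members, lists and tests were chosen with earlier results of these data known. Values in every rat are given for genes that passed in MI versus Sham and for both members of each isoform pair, and other pathway genes are named where they passed, except 1 that is not reported here. Promoters came from RefSeq (GRCr8), where 36 of 38 symbols matched.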

Additional observations from a re-analysis of the deposited data

Results flagged for a closer look

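In 6 of 138 groups of 4 rats a single rat stood apart from the other three by Dixon's criterion at 95%, the gap to the nearest rat over the range of the group. Chance gives about 1 in 20 groups, or 7 here. Ugp2 was highest in MI + UA rat 66, at 115.6 CPM against 75.52 to 81.02 CPM in the other rats of the group (gap over range 0.835), and this is the rat whose group the sources give differently. Ppp1r3c was lowest in Sham rat 12, at 114.8 CPM against 126.5 to 128.3 CPM (0.875). The log2 ratio Slc2a4/Slc2a1 had such a rat in both vehicle-treated groups, Sham rat 17 at 3.60 against 3.904 to 3.938 (0.900) and MI rat 57 at 3.71 against 3.136 to 3.194 (0.899). Hk2/Hk1 was highest in MI + UA rat 64, at -1.716 against -2.245 to -2.176 (0.870). Ldhb/Ldha was lowest in MI rat 61, at 0.882 against 1.181 to 1.238 (0.841). Without that rat the difference between MI and Sham was -0.15 on the log2 scale, and -0.23 with it.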

How the results depend on the processing

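The count of 14 members lower in MI than in Sham was 14 or 15 under DESeq2 or its size factors, TMM without mitochondrially encoded genes, other count filters, fits of only the groups compared and rat 66 in MI, and 13 to 15 without any 1 rat. For MI + UA versus Sham it was 12 to 15, and 9 to 13 without any 1 rat. Between MI + UA and MI it was 0 throughout. Scaling to cardiomyocyte markers, added after seeing the data, gave 13 and 12 members higher and 0 lower against Sham in MI and MI + UA, mostly other members than those called lower before (1 of the 14 and 0 of the 12), and called 8785 and 7068 of all genes. This follows from its construction, since those markers fell. Genes called in MI + UA versus MI numbered 3 with no filter on low counts and 0 to 1 without any 1 rat, for a cause that was not tested. With rat 66 in MI, Pfkm/Pfkl in MI versus Sham was -0.62 with an exact permutation p of 0.0159.

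Signs of small, uncalled differences turned. In MI versus Sham this was so for Pgam1 with edgeR's filterByExpr (0.0028), and with rat 66 in MI for Aldoc (0.15), Pgam1 (0.044), Eno1 (0.029) and Pygl (-0.083). With rat 66 in MI, MI + UA versus MI gave -0.0051 for Slc2a4, -0.0080 for Gpi, -0.096 for Pfkfb2, -0.037 for Pgam1, -0.075 for Slc16a1, -0.012 for Gyg1, -0.062 for Pygm, -0.028 for Pygb, -0.090 for Gbe1, -0.15 for Ugp2, -0.51 for Slc2a4/Slc2a1 and -0.032 for Pygm/Pygb. Without any 1 rat, log2 fold changes in MI versus Sham ran from -0.20 to 0.15 for Eno1, from -0.095 to 0.099 for Slc2a1, from -0.098 to 0.13 for Pfkl, from -0.86 to 0.63 for Aldoc, from -0.12 to 0.063 for Pgam1, from -0.31 to 0.30 for Pygl and from -0.0052 to 0.19 for Slc16a1. In MI + UA versus MI they ran from -0.0029 to 0.18 for Pgam1, from -0.29 to 0.081 for Eno3, from -0.052 to 0.14 for Slc16a1, from -0.38 to 0.41 for Pygl, from -0.0031 to 0.087 for Gpi, from -0.071 to 0.017 for Ldhb, from -0.056 to 0.058 for Pygb, from -0.099 to 0.035 for Pgm1, from -0.13 to 0.0067 for Ppp1r3c, from -0.048 to 0.19 for Hk2, from -0.020 to 0.18 for Gbe1, from -0.040 to 0.10 for Ppp1r3a, from -0.48 to 0.080 for Aldoa, from -0.016 to 0.10 for Ldha, from -0.12 to 0.27 for Slc16a3, from -0.081 to 0.022 for Phkb, from -0.00037 to 0.12 for Pygm and from -0.025 to 0.21 for Ugp2. In MI versus Sham, without any 1 rat, Pgam2/Pgam1 ran from -0.61 to -0.46 and Ldhb/Ldha from -0.26 to -0.15, where the p of 0.0286 or 0.0571 depends on how 4 and 3 rats can be regrouped, while Slc2a4/Slc2a1 ran from -0.66 to -0.47 and Pfkm/Pfkl from -0.77 to -0.48, with a p down to 0.0286. The latter 2 p-values fell where the rat left out was one through which the groups overlapped. Other ratios ran from -0.92 to 0.35 for Aldoa/Aldoc in MI versus Sham, from -0.32 to 0.27 for Slc2a4/Slc2a1 in MI + UA versus MI, from -0.11 to 0.036 for Pfkm/Pfkl in MI + UA versus MI, from -0.0079 to 0.15 for Pgam2/Pgam1 in MI + UA versus MI, from -0.00052 to 0.14 for Pygm/Pygb in MI + UA versus MI and from -0.35 to 0.33 for Pygm/Pygl in MI + UA versus MI. Phkb lost its call in 5 of 8 such fits, as given above. In MI versus Sham no other member lost its call under these settings, apart from the scaling to cardiomyocyte markers.

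No paired analysis was possible because the rat numbers are shared by no 2 groups. Depth limits Aldoa, Aldoc, Pygl, Phkg1 and Slc16a3, with 96 to 330 reads each over all rats.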
